A study of Mus musculus with 96 samples.

Results

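The S100 proteins, annexins and galectins are 3 families of small or medium-sized proteins, and 10 genes of these families were followed here. The genes were chosen by name, as S100a4, S100a6, S100a10, S100a11, Anxa1, Anxa2, Anxa3, Anxa5, Lgals1 and Lgals3, and they are 10 of the 40202 genes in the files. Transcripts were counted in 96 libraries, each from a single cell of the mouse lung line C10, an established line grown in RPMI with 10% serum. Of these, 48 were controls whose treatment is given as none, with no vehicle named, and 48 came from dishes given 10 nM RO-3306 for 36 h before sorting. RO-3306 is sold as an inhibitor of CDK1, the kinase that drives entry into mitosis. It is usually applied at micromolar doses, so the dose is printed here as labelled and may be a slip of unit. The comparison asks how the transcripts of these genes differed between treated and untreated cells.

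S100 proteins are calcium sensors with EF-hand domains that usually work as dimers and change shape when calcium binds. Annexins bind to the acidic phospholipids of membranes in the presence of calcium, and S100 dimers can join a pair of annexins and the membranes they sit on, as S100A10 does with annexin A2 and S100A11 with annexin A1. Galectins bind sugar chains that contain beta-galactoside, both outside the cell and on damaged endosomes and lysosomes. Galectin-3 was named Mac-2 when it was found as a surface antigen of macrophages, and it is also made by epithelial and stromal cells.

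A library was kept when it reached 50000 counts and showed 1000 genes, which left 29 control and 37 RO-3306 cells. Their totals ranged from 59979 to 6457210 counts in control and from 295005 to 5321880 in RO-3306 (medians 1753430 and 2234310). Kept cells showed a median of 5177 genes in control and 6951 in RO-3306. Numbers of cells with a count for a gene carry this difference too, and the share of all genes found in more RO-3306 cells is not given. No culture or dish is named for a library, so each treatment is 1 sample and no p-value was computed. Library titles hold one of the letters A, B, C and D, whose meaning is not given, and these 4 lettered sets served only as a check on the direction of a difference. The kept cells numbered 10, 8, 6 and 5 in the control sets and 10, 10, 11 and 6 in the RO-3306 sets. The labels describe the line as alveolar type II, but 5 of 10 markers of that type, the surfactant genes Sftpa1, Sftpc and Sftpd among them, had no count in any kept cell of either group, and the 10 summed to 23.5 and 27.7 CPM (counts scaled to a total of 1e6) in control and RO-3306. The 6 epithelial markers summed to 1.78 and 0.978 CPM, and the 9 mesenchymal markers to 5641 and 2532 CPM.

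The 10 genes together took 1.30% of all control counts and 1.22% of all RO-3306 counts. Levels are CPM from counts added up over a group's kept cells, and ratios are RO-3306 over control on the scale of log2(CPM + 1). Of the 10 genes, 1 was at least 2-fold higher in RO-3306 (Lgals3), against 12.2% of the 9374 genes of at least 5 CPM, and none was at least 2-fold lower, against 24.2%. Among the 1088 genes of at least 200 CPM, where all 10 genes lie, 6.62% were at least 2-fold higher and 5.7% at least 2-fold lower. Both conditions together, a 2-fold ratio and 1 direction throughout the 4 lettered sets, were met by Lgals3 upward (7.23% of genes of at least 5 CPM and 6.62% of those of at least 200 CPM) and by none of the 10 downward (6.43% and 4.5%). By sign alone, Lgals3 was the only one of the 10 that was higher in all 4 sets (13.1% and 25.6%), while Anxa1 and Anxa2 were lower in all 4 (10.3% and 18.9%). Of the 10 ratios, 6 (S100a6, S100a10, S100a11, S100a4, Anxa3 and Lgals1) lay within 0.25 of 0 (log2), against 20.3% of genes of at least 5 CPM and 34.5% of those of at least 200 CPM. The median ratio of the 10 genes was -0.04, beside -0.22 for all genes of at least 5 CPM and 0.03 for those of at least 200 CPM.

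How the 2 groups are scaled moves all ratios together. TMM factors, which balance the bulk of genes, raised every ratio by 0.22 on the log2 scale, and 3 of the 10 genes then lay within 0.25 of 0, against 20.1% of genes of at least 5 CPM and 30.7% of those of at least 200 CPM. Under TMM the ratios of S100a4, S100a11 and Anxa3 turned from just below 0 to 0.07, 0.19 and 0.16, so no direction is given for these genes. Counting intervals are narrow at these levels, and they cover counting error only, since the reads carry no molecular identifiers and include PCR copies.

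**Figure D1:**
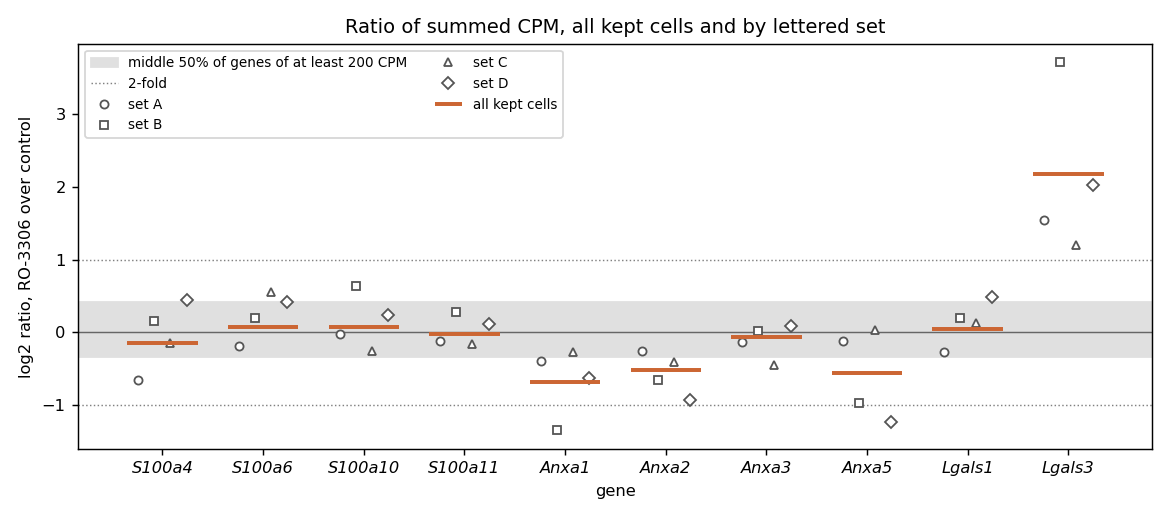
Log2 ratio of RO-3306 over control for each of the 10 genes, from counts summed over all kept cells (bars) and within each lettered set (open symbols), over a grey band that spans the middle 50% of genes of at least 200 CPM. Lgals3 lay above the band in all 4 sets, Anxa1 and Anxa2 were below 0 in all 4, and the bars of S100a4, S100a11 and Anxa3 change sign under TMM factors.

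The promoters of 4 of these genes are shown because they cover the 3 behaviours seen: Lgals3 was higher after RO-3306, Anxa1 and Anxa2 lower in all 4 sets, and S100a11 nearly level. Each runs 5′ to 3′ from 250 bases before to 50 after the annotated start, from RefSeq on GRCm38.p6. Capitals mark GC boxes (GGGCGG, either strand) in Lgals3, the TATA box (TATAAA) in Anxa1, an AP-1 motif (TGANTCA) and the TATA box in Anxa2, and both AP-1 motifs in S100a11.
Lgals3, chr14:47373610-47373909, + strand: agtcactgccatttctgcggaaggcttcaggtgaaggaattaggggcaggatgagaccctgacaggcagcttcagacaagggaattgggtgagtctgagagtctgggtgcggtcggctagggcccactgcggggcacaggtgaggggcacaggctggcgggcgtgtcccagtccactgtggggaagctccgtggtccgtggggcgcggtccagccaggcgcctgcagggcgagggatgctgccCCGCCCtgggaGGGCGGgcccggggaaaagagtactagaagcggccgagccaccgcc
Anxa1, chr19:20390622-20390921, - strand: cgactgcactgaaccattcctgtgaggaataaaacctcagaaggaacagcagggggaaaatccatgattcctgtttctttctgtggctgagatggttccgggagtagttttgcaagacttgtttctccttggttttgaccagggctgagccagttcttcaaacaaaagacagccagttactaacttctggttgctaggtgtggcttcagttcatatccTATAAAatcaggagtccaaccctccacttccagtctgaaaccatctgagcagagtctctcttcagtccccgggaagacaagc
Anxa2, chr9:69453433-69453732, + strand: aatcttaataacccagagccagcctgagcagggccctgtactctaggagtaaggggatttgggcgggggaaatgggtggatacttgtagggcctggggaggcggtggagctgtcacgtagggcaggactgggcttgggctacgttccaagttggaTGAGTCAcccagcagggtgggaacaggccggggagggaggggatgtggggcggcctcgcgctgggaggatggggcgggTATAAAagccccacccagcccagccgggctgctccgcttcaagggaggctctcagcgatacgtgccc
S100a11, chr3:93520246-93520545, + strand: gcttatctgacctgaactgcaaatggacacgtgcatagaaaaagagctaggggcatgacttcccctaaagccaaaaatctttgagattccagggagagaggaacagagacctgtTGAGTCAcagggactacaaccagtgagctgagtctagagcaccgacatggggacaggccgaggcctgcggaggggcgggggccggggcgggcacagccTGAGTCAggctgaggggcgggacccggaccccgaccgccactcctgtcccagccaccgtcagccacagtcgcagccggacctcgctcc
Promoters of 7 of the 10 genes were found in the RefSeq table, and none was found for S100a10, Anxa3 and Lgals1. The Lgals3 promoter is the richest in G and C of the 4, at 67% against a median of 52.7% over all 32851 promoters, and its GC boxes begin 7 bases before the start and at position 4 after it. GC boxes, not marked here, were also found in Anxa2 (190, 48 and 24 bases before the start) and S100a11 (64, 52 and 24). TATAAA was found in 3 of the 7 promoters, beginning 32 bases before the start in Anxa1, 17 in Anxa2 and 31 in S100a4. Lgals3 and S100a11 both lack it. An AP-1 motif lies 95 bases before the start in Anxa2, and in S100a11 at 136 and 38 bases. Over all promoters of this length, searched on both strands, 7.81% hold the AP-1 letters, 13.6% the TATA letters and 35.7% the GC box. CACGTG, the E-box letters, was found in S100a6 and S100a11 (7.15% of all promoters), and the antioxidant response element TGACNNNGC in none of the 7 (12.4%). A motif match describes the letters and is no evidence of a bound factor.

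S100 genes were high in both groups and differed little between them. S100a4 encodes a regulator of non-muscle myosin that is abundant in fibroblasts. Its level per cell ran from 189 to 2237 CPM (median 1039) in control cells and from 16.2 to 1943 CPM (median 1059) in RO-3306 cells. The groups overlapped over nearly the whole range, and the summed levels were 1082 and 974 CPM, a ratio of -0.15 with values of -0.65, 0.16, -0.14 and 0.45 in sets A to D. S100a6, or calcyclin, ran from 100.04 to 938 CPM (median 343) in control and from 1.94 to 1003 CPM (median 432) in RO-3306. Of the 37 RO-3306 cells, 27 lay above the control median. The summed levels were 426 and 451 CPM, a ratio of 0.08 (0.30 under TMM), with -0.19 in set A and 0.21 to 0.55 in the others. Control cell A3 held 18.6% of the control counts. Without it the control level was 379 CPM and the ratio 0.25. Over the alternative settings the ratio of S100a6 ranged from -0.21 to 0.33. The lowest RO-3306 cell for S100a6 was cell A11, in which mitochondrial genes took 18.1% of counts. That share had a median of 4.42% over RO-3306 cells.

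S100a10 and S100a11 are the annexin partners. S100a10, which lacks working calcium sites and is held in its active shape, ran from 266 to 1995 CPM (median 1010.03) in control cells and from 149 to 1576 CPM (median 929) in RO-3306 cells. Summed levels were 867 and 916 CPM, and the ratio of 0.08 had both signs among the sets (-0.02, 0.64, -0.26 and 0.23). S100a11 ran from 522 to 2619 CPM (median 1387) in control and from 453 to 2809 CPM (median 1404) in RO-3306. Its summed levels, 1507 and 1480.1 CPM, were the closest of the 10 genes on this scale, with a ratio of -0.03 (0.19 under TMM) and set values from -0.16 to 0.28. Reads placed at more than 1 site leave fractional counts. These were present in 84.8% of kept cells with a count for S100a11 and 75.8% for S100a10, the highest shares of the 10 genes. The shares count cells and not reads, so how much of each level rests on such reads is not known. The RO-3306 minimum of S100a4, S100a10 and S100a11 came from the same cell, C11, which had 740432 counts and a mitochondrial share of 2.06%.

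The 4 S100 genes share a chromosome. S100a4 (GRCm39, chr3:90511077-90513352) ends 6848 bases before S100a6 (chr3:90520201-90521721), and S100a11 (chr3:93427803-93433595) ends 28828 bases before S100a10 (chr3:93462424-93471952). The pairs lie 2.91 Mb apart, all on the + strand. Chromosome 3 holds 15 genes named S100a with a number, and S100a8 and S100a9, which lie between the pairs, had no count in any kept cell of either group. Reads were counted over the whole span of a gene, introns included, and the span of S100a3 ends 154 bases before that of S100a4.

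All 4 annexins had summed ratios below 0, none of them 2-fold, and that of Anxa3 turned above 0 under TMM. The same sign was found for 59% of genes of at least 5 CPM and 47.6% of those of at least 200 CPM (50.1% and 32.5% under TMM). Anxa1 encodes a phospholipid-binding protein that is induced by glucocorticoids and signals through formyl peptide receptors. It ran from 0 to 5610.2 CPM (median 2253) in control cells and from 98.3 to 4261 CPM (median 1598) in RO-3306 cells, and 31 of 37 RO-3306 cells lay below the control median. The control value of 0 came from 1 cell, C3, and the next lowest control cell held 793 CPM. Summed, Anxa1 went from 2655 CPM in control to 1659.5 CPM in RO-3306, 1.60-fold lower, with a ratio of 0.625 (counting interval 0.621 to 0.629). The log2 ratio was -0.68 (-0.46 under TMM) and was below 0 in each set, at -0.39, -1.35, -0.27 and -0.63. Without set B it was -0.43.

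Anxa2 encodes the annexin that forms a tetramer with S100A10 and binds plasminogen and its activator at the cell surface. It was present in every kept cell, from 883 to 3508 CPM (median 1697) in control and from 102 to 3104 CPM (median 1289) in RO-3306. The groups overlapped, yet 31 of 37 RO-3306 cells lay below the control median and 7 below every control cell. Summed levels were 1857 and 1301 CPM, 1.43-fold lower in RO-3306, with a ratio of 0.701 (0.695 to 0.706). The log2 ratio was -0.51 (-0.30 under TMM), and the sets gave -0.26, -0.66, -0.41 and -0.92. Both Anxa1 and Anxa2 stayed below 0 in all 4 sets with TMM factors computed in each set.

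Anxa5, whose product binds phosphatidylserine and is used to stain dying cells, was the lowest annexin of the 4. It ran from 0 to 1076 CPM (median 405) in control cells, 3 of which had no count, and from 40.7 to 1193 CPM (median 289) in RO-3306 cells. Of the RO-3306 cells, 29 of 37 lay below the control median. Summed levels were 456 and 309 CPM with a log2 ratio of -0.56, but the sets did not all go the same way: sets B and D gave -0.97 and -1.24, and sets A and C gave -0.12 and 0.03. Anxa3, another membrane-binding annexin, was nearly level at 1026 and 985 CPM (ratio -0.06, 0.16 under TMM). It ran from 0 to 2328 CPM (median 894) in control and from 57.6 to 2747 CPM (median 861) in RO-3306, and its set values lay between -0.45 and 0.09. The lowest RO-3306 cell for all 4 annexins was B3, where mitochondrial genes took 56.0% of counts. Leaving out cells with a mitochondrial share above 20% changed the ratios little, to -0.67 for Anxa1 and -0.51 for Anxa2.

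The annexins lie apart from each other in the genome (GRCm39): Anxa1 at chr19:20350798-20368035 and Anxa5 at chr3:36503072-36530036 on the - strand, and Anxa2 at chr9:69360965-69399074 and Anxa3 at chr5:96941244-96993827 on the + strand. The spans of Anxa2 and Anxa5 each hold a microRNA gene, Mir3109 and Mir7009.

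Markers of other cell states were set beside the annexins. All 8 mesenchymal markers of at least 5 CPM had ratios below 0, under TMM too (59% and 50.1% of all genes of at least 5 CPM). Col3a1, from 603 to 83.6 CPM, and Col1a1, from 714 to 127 CPM, were those at least 2-fold lower overall and lower in each set. Vim was lower in each set but below 2-fold (-0.94). The sets were split for others: Acta2 gave 0.32 and 1.18 in sets B and D. Fn1, Cdh2 and Pdgfra each had 1 set above 0 (0.06, 2.08 and 4.58). The marker sum spanned 1329 to 11354 CPM per control cell and 1263 to 13894 CPM per RO-3306 cell, and 1 of the 9 markers, Thy1, was at 0 in both groups. Among 12 mitotic genes, 5 were higher and 7 lower (7 and 5 under TMM), beside 59% of all genes of at least 5 CPM below 0 (50.1% under TMM). Mki67 alone was at least 2-fold lower overall and lower in each set (105 to 12.5 CPM), beside 6.43% of all genes of at least 5 CPM. Both counts lay near these shares and are no result about the mitotic genes. The part of the mesenchymal and mitotic genes in the annexin values was not tested.

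**Figure D2:**
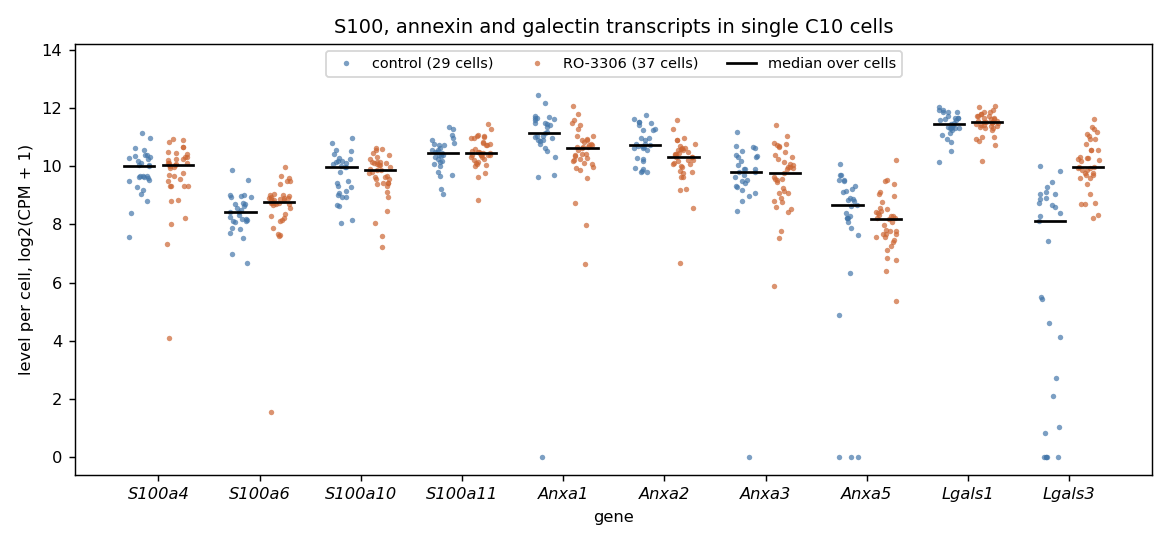
Level of each gene in each kept cell as log2(CPM + 1), 29 control cells in blue and 37 RO-3306 cells in orange, with black bars at the medians. The groups overlapped for every gene, and Lgals3 had the lowest control cells, 9 of them under 10 CPM, while no RO-3306 cell was under 294 CPM.

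The galectins differed from each other. Lgals1 encodes a small galectin that forms dimers, and it had the highest level per kb of mRNA of the 10 genes in both groups. It ran from 1134 to 4174 CPM (median 2775) in control cells and from 1151 to 4281 CPM (median 2926) in RO-3306 cells. Summed levels were 2876 and 2959 CPM with a ratio of 0.04, and sets A to D gave -0.27, 0.20, 0.13 and 0.49. On the other strand, the gene Gm30368 overlaps 33.97% of the Lgals1 span (GRCm39, chr15:78810925-78814665), and reads were counted with no strand option stated, so reads from the overlap cannot be assigned by strand.

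Lgals3 encodes galectin-3, a galectin with a long flexible tail through which it forms lattices on glycoproteins. Its span (GRCm39, chr14:47611317-47623624, + strand) overlaps no other annotated gene. Control cells ran from 0 to 1029.6 CPM (median 280), and RO-3306 cells from 294 to 3159 CPM (median 1005). Of 29 control cells, 24 had a count (82.8%, exact interval 64.2% to 94.2%), and all 37 RO-3306 cells did. At the equal depth of 639000 reads a cell, a count was found in 20 of 25 cells of the control and in 34 of 34 after RO-3306. The ranges overlapped in part: 15 control cells lay below every RO-3306 cell, 18 RO-3306 cells lay above every control cell, and 1 control cell lay above the RO-3306 median. Every RO-3306 cell lay above the control median. Of 9374 genes of at least 5 CPM, 5 share this (0.0533%), as do 3 of the 1088 of at least 200 CPM (0.276%), the others of the 5 being Gas5, Ctsd, Pcdh15 and Rida. This count was added after the values were seen, and the margin was narrow (294 against 280 CPM). It did not hold within every set: the lowest RO-3306 cell was at 322 CPM in set A and 294 CPM in set C. The control medians of those sets were higher, at 370 and 349 CPM.

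Summed, Lgals3 went from 268 CPM (264 to 272) in control to 1214 CPM (1207 to 1221) in RO-3306, a ratio of 4.53 (4.46 to 4.61) or 2.18 on the log2 scale. The 4 sets gave 1.55, 3.71, 1.21 and 2.02. Set B stood apart on the control side: 5 of its 8 control cells held under 10 CPM and its control median was 0.917 CPM, against medians of 349 to 423 CPM in the other sets. Control levels under 10 CPM were also found in 2 cells each of sets A and D and in none of set C. RO-3306 medians lay between 937 and 1491 CPM in all 4 sets. Without set B the log2 ratio was 1.62, and without set A 2.54. Leaving out any 1 cell moved it between 2.04 and 2.33.

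**Figure D3:**
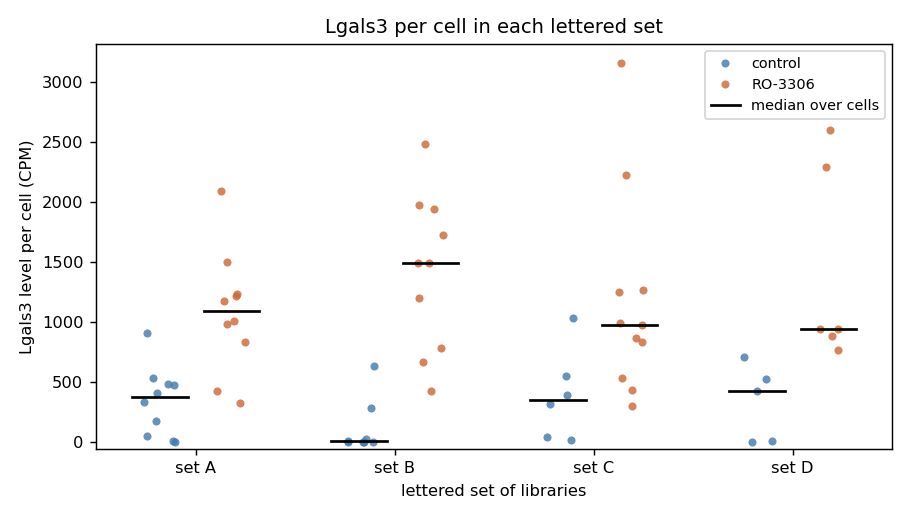
Lgals3 level in each kept cell in CPM, split by lettered set, with control cells in blue, RO-3306 cells in orange and black bars at the medians. The RO-3306 median lay above the control median in each set, and the control median of set B was near 0.

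Because galectin-3 is also known as a macrophage antigen, the 14 macrophage markers were set beside it, of which 3 reached 5 CPM (Cd68, Lyz2 and Cd14). Their sum spanned 0 to 315 CPM per control cell and 0 to 860.2 CPM per RO-3306 cell. Nearly all of the difference was Cd68, a lysosomal membrane protein, at 0.0757 CPM (0.0246 to 0.177) in control against 319.8 CPM after RO-3306. Cd14 was at 26.4 and 45.3 CPM and higher in all 4 sets, Lyz2 at 29.5 and 15.8 CPM (8.85 in control without cell A3), Fcer1g at 0 and 3.46 CPM (3 RO-3306 cells) and Csf1r at 1.70 and 0 CPM (2 control cells). The defining genes Marco, C1qa, C1qb and Tyrobp were at 0 in every kept cell of either group, and Adgre1 and Ptprc summed to at most 0.129 CPM. Cd68 had a count in 1 of 29 control cells, so its relation to Lgals3 can be read only after RO-3306, where the Spearman correlation over 34 cells at equal depth was 0.25. The part of Cd68 or of macrophage RNA in the Lgals3 values was not tested. The 5 endothelial markers summed to 0.619 and 0.311 CPM. Of the 7 alveolar type I markers, Cav1 made up most of the sum, at 1111 and 963 CPM, and Ager and Aqp5 were at 0.

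Within single cells, the balance between partner genes was read as the ratio of their levels per kb of mRNA. For Anxa2 over S100a10 the median was 0.653 in the control and 0.429 after RO-3306. It was lower in RO-3306 in 3 of 4 sets, with set A at 0.527 and 0.535. For Anxa1 over S100a11 the median was 0.458 in control and 0.314 in RO-3306, lower in all 4 sets. The summed ratios behind these pairs were -0.51 for Anxa2 and 0.08 for S100a10, and -0.68 for Anxa1 and -0.03 for S100a11. For Lgals3 over Lgals1 the median was 0.0508 in control and 0.208 in RO-3306, higher in all 4 sets, and Lgals1 exceeded Lgals3 in every kept cell. Anxa1 over Anxa2 had medians of 1.62 and 1.79 over all cells, but within sets the RO-3306 median was the lower in 3 of 4, and Anxa1 was the higher in 25 of 29 control and 30 of 37 RO-3306 cells.

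Levels of different genes were compared only per kb of mRNA. Reads over introns were counted too, while the lengths are those of the mRNA. The gene span was 52584 bases for Anxa3 (mRNA 1595) and 1521 for S100a6 (mRNA 783). The part of intron reads in the order of levels was not tested. The order is given with its spread over the lettered sets. In control cells it ran Lgals1 (3595 CPM per kb), S100a11 (2949), S100a4 (2172), Anxa1 (1586), S100a10 (1265), Anxa2 (814), Anxa3 (643), S100a6 (544), Anxa5 (263) and Lgals3 (189). The ranges over the 4 sets overlapped for all neighbours in this order but S100a6 and Anxa5. In RO-3306 cells Lgals1 (3699), S100a11 (2897), S100a4 (1957) and S100a10 (1338) were the top 4, and their set ranges did not overlap each other or that of Anxa1 (991). Lgals3 was next at 856 CPM per kb, with a range that overlapped that of Anxa1. Anxa3 (617), S100a6 (575) and Anxa2 (571) followed with overlapping ranges, and Anxa5 (178) was last. In this order Lgals3 stood at place 10 in control and 6 in RO-3306, and Anxa2 at 6 and 9.

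Cell-to-cell spread was compared at equal depth as the coefficient of variation (SD over mean). Lgals1 was the most even of the 10 genes, at 0.227 in control and 0.220 in RO-3306. Lgals3 was the most uneven in control, at 0.985, and had 0.549 in RO-3306. The median over genes of at least 200 CPM was 0.711 in control and 0.513 in RO-3306, and 82.2% of these 1088 genes had the lower value in RO-3306. Of the 10 genes, 4 had a lower value in RO-3306 (S100a6, S100a10, Lgals1 and Lgals3). The spread of Anxa3 went the other way, from 0.402 to 0.551.

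The 4 S100 genes varied together from cell to cell. Their 6 pairs had Spearman correlations from 0.24 to 0.65 over 25 control cells (median 0.34) and from 0.47 to 0.65 over 34 RO-3306 cells (median 0.59), all at equal depth. The median over all 45 pairs of the 10 genes was 0.11 in control and 0.21 in RO-3306. S100a10 and S100a11 had 0.65 and 0.63, while the neighbours S100a4 and S100a6 had 0.24 and 0.65. Lgals1 followed the S100 genes with medians of 0.47 and 0.45 over its 4 pairs. Among annexins the medians were 0.11 and 0.22 over 6 pairs, and between S100 genes and annexins 0.04 and 0.17 over 16 pairs. The partner pair S100a10 and Anxa2 had 0.27 and 0.24, and S100a11 and Anxa1 had 0.07 and 0.34. In RO-3306 cells S100a4, S100a6, S100a10 and S100a11 also had correlations of 0.45, 0.42, 0.37 and 0.14 with the mitochondrial share of counts (0.20, 0.12, 0.30 and 0.11 in control), and the part of that share in the S100 pairs was not tested. Genes of 1 library share its depth and composition, so these values are a description of the libraries.

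**Figure D4:**
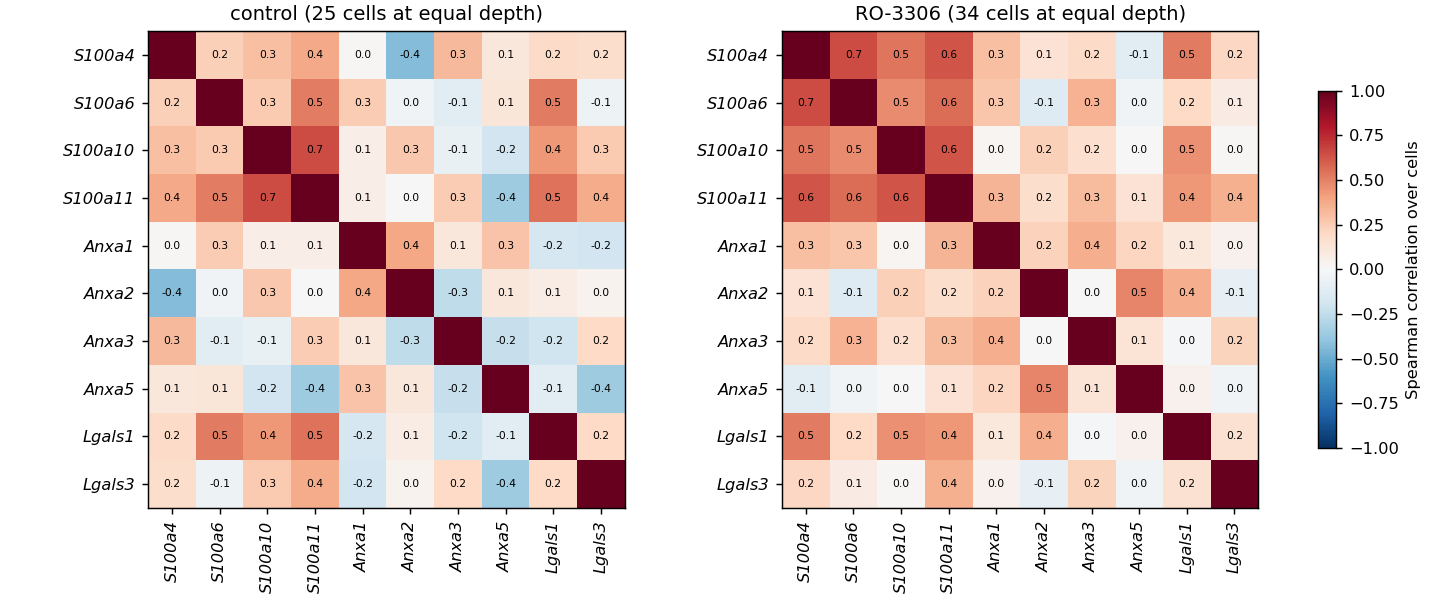
Spearman correlations over cells between the 10 genes at equal depth, for 25 control cells (left) and 34 RO-3306 cells (right), with red for positive and blue for negative values. The block of the 4 S100 genes was positive throughout in both groups, with medians of 0.34 and 0.59. Correlations that involved an annexin had both signs, from -0.43 to 0.38 in control and from -0.13 to 0.49 in RO-3306.

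Likeness of a gene to each of 3701 genes of at least 50 CPM was measured as the lower of its correlations in the 2 groups. S100a10 and S100a11 were each other's nearest gene, at 0.63, and S100a11 was also the nearest to S100a6, at 0.51. The next after these were Rpl12 for S100a10 (0.56), Ndufb4 for S100a11 (0.54) and Rpl39 for S100a6 (0.48), so genes outside the S100 family came close to these values. For S100a4 the nearest were Dnajc19 (0.48) and Tmsb4x (0.46), and for Lgals1 they were Tmsb10 (0.51) and Ndufa3 (0.46). The annexins had no other annexin among their 2 nearest: Anxa1 was nearest to Dync1i2 (0.52) and Ctnnal1 (0.46), Anxa2 to Akr1c14 (0.43) and Myc (0.37), Anxa3 to Slc25a51 (0.39) and Mgat2 (0.37), and Anxa5 to Msn (0.40) and Psenen (0.37). Lgals3 was nearest to Vps29 (0.40) and Atpaf2 (0.38). Against the summed level of the 12 mitotic genes, Lgals1 had -0.14 in control and -0.42 in RO-3306, Anxa3 -0.23 and -0.40, and S100a4 -0.32 and -0.37. Lgals3 had 0.01 and -0.23.

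Other genes of the 3 families were set beside these 10, and their counts above and below 0 are read against the 41% of all genes of at least 5 CPM with a ratio above 0 (49.9% under TMM). Among genes of at least 200 CPM that share was 52.4% (67.5% under TMM). Per kb of mRNA, Lgals9 was the highest of them in both groups, at 114 and 175 CPM per kb. Next to it were Anxa4 in control (93.9) and Lgals2 in RO-3306 (164), and their ranges over the 4 sets overlapped that of Lgals9. In RO-3306 the range was 50.5 to 281 CPM per kb for Lgals2 and 103 to 246 for Lgals9. Of 12 further S100 genes, 4 had at least 5 CPM, all 4 had ratios above 0, and 1 was at least 2-fold higher with the same sign in all 4 sets. That gene was S100a3, at 10.9 and 34.3 CPM (ratio 1.56). A count was seen in 4 of 29 cells of the control against 26 of 37 after RO-3306, and 47.4% of its control counts came from cell A11, without which the control level was 5.93 CPM. Numbers of cells with a count, here and below, carry the larger number of genes seen in RO-3306 cells. Of the 12, 6 were at 0 in both groups (S100a8, S100a9, S100a14, S100b, S100g and S100z).

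Of 8 further annexins, 4 had at least 5 CPM, 2 with ratios above and 2 below 0 (3 and 1 under TMM). Anxa9 was at least 2-fold higher with the same sign in all 4 sets, at 2.47 and 22.9 CPM (ratio 2.79), with a count in 7 control and 22 RO-3306 cells. Of its control counts, 49.7% came from cell B5, and without that cell the control level was 1.35 CPM. Anxa6, an annexin with a doubled core, was at 179 and 79.2 CPM (ratio -1.16, -0.95 under TMM), but gave 0.02 in set C. Anxa8 and Anxa10 were at 0 in both groups. Of 8 further galectins, 7 were matched in the files and 4 had at least 5 CPM, all 4 with ratios above 0. Lgals2 alone was at least 2-fold higher overall and higher in each set, at 28.6 and 96.9 CPM (ratio 1.72), with a count in 13 control and 28 RO-3306 cells. Lgals9 (0.61) and Lgals8 (0.54), whose products hold a pair of sugar-binding domains, were below 2-fold. Lgals9 was higher in all 4 sets, but Lgals8 gave 0.71, 1.23, -0.22 and -0.13. Lgalsl was at 6.10 and 13.9 CPM (ratio 1.07), with a count in 2 control and 7 RO-3306 cells and -0.85 in set A. Lgals7 and Lgals12 were at 0.

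Among 23 genes for binding partners, receptors and glycan enzymes, 15 had at least 5 CPM, 5 with ratios above and 10 below 0 (7 and 8 under TMM). Capn1, a calcium-activated protease, was at 29.1 and 133 CPM (ratio 2.15), and Plaur, the urokinase receptor, at 48.9 and 149 CPM (1.59). Both were higher in all 4 sets. Plat, which encodes the plasminogen activator bound by the annexin A2 complex, was at 47.1 and 8.33 CPM (-2.36) with signs that differed among the sets, and 41.8% of its control counts came from cell B1, without which the control level was 28.5 CPM. Plg, Ager, Trpv5 and Trpv6 were at 0 in both groups. Ahnak, a scaffold of the annexin A2 complex, was at 107 and 84.8 CPM (-0.34), and Cacybp, which binds calcyclin, at 834 and 819.6 CPM (-0.02, 0.19 under TMM). Myh9, the myosin heavy chain that S100A4 binds, was at 107 and 47.3 CPM (-1.16, -0.95 under TMM) with a ratio of 0.47 in set A.

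**Figure D5:**
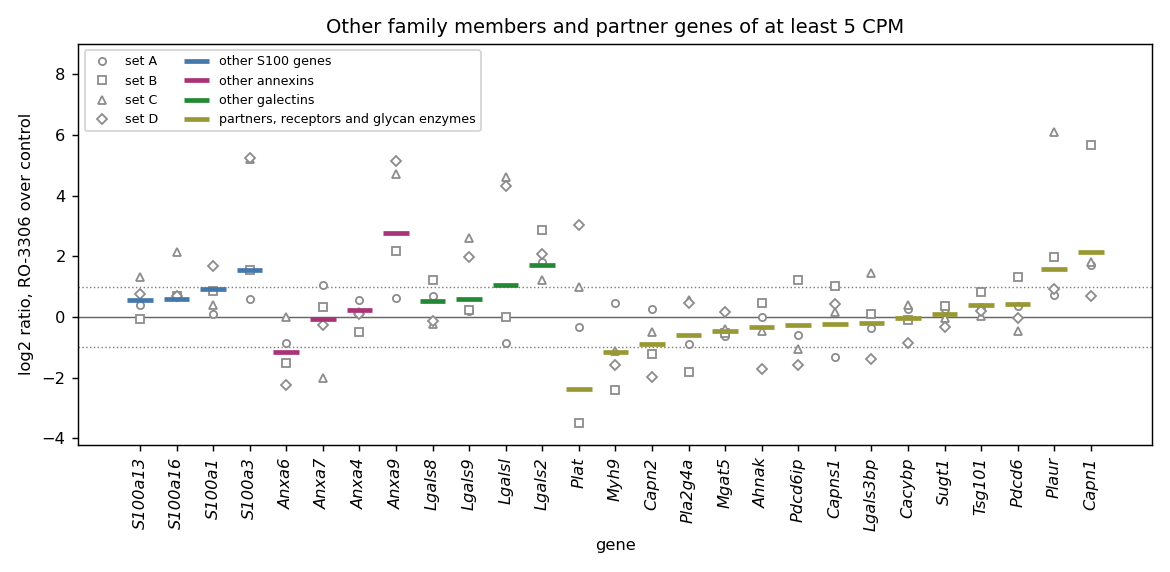
Log2 ratio of RO-3306 over control for the other S100 genes, annexins, galectins and partner genes of at least 5 CPM, from summed counts (coloured bars) and by lettered set (open symbols), with dotted lines at 2-fold. S100a3, Anxa9, Lgals2, Capn1 and Plaur lay at least 2-fold higher and above 0 in all 4 sets, and Plat, the lowest bar, had sets on both sides of 0.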

How the data were processed

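The files hold expected counts per gene for each single-cell library, which the authors made with featureCounts 2.0.3 on GRCm39 RefSeq genes, per the file headers. Reads were counted over whole gene spans and multi-mapped reads were split into fractions. The headers state no strand option. STAR and FastQC are named in the submitters' processing notes. At least 15.9% (Anxa5) and at most 84.8% (S100a11) of the kept cells with a count for a gene held a fractional one, so part of these values rests on reads that also map elsewhere. Counts were summed over kept cells, scaled to a total of 1e6 (CPM) and compared with a pseudocount of 1 CPM. Intervals are exact Poisson or Clopper-Pearson at 95%, with counts rounded. For equal depth, cells were thinned at random to 639000 reads, leaving 25 control and 34 RO-3306 cells. mRNA lengths were matched by symbol in GENCODE M21, with no coordinates taken. TMM and DESeq2 factors came from edgeR 4.0.16 and DESeq2 1.42.0 in R 4.3.3, and the rest used Python 3.11.15, numpy 2.4.6, pandas 2.3.3 and scipy 1.17.1. No doublet caller was run on these singly sorted cells. The script was tested on simulated data. List genes were named where they had at least 5 CPM, a 2-fold ratio and the same sign in all 4 sets, and a few others were added after their values were seen, as were the limit of 200 CPM and the count of genes with every RO-3306 cell above the control median. The members and lists were chosen with earlier results of these data known.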

Additional observations from a re-analysis of the deposited data

Results flagged for a closer look

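Some libraries were left out of every comparison for low depth or few genes, and for 7 of the 10 genes the summed level in the 11 left-out RO-3306 libraries was above that in the 19 left-out control libraries. S100a10 reached 1339.02 CPM against 8.79 CPM, Lgals1 910.027 CPM against 176 CPM, and Lgals3 597 CPM against 2.93 CPM. S100a4 was at 549 CPM against 46.9 CPM, S100a11 at 513 CPM against 43.97 CPM, Anxa2 at 420 CPM (419.748) against 43.97 CPM, and S100a6 at 113 CPM against 2.93 CPM. The library RO-3306 D4 held most of these counts for 5 of the genes, and without it S100a10 was at 204 CPM, S100a11 at 111 CPM, Anxa2 at 43.96 CPM (no longer above the left-out control libraries), Lgals3 at 201 CPM and Lgals1 at 497 CPM. S100a6 rested on RO-3306 A4, without which it was at 13.03 CPM, under the 16.3 CPM that counting error allows in the left-out control libraries. Without RO-3306 D5, which held most of the left-out RO-3306 counts, S100a4 was at 1054 CPM. These libraries hold 341166 control and 1162600 RO-3306 counts in all. The left-out control libraries also held these genes far below the kept control cells. S100a4 was at 46.9 against 1082 CPM, S100a10 at 8.79 against 867 CPM and Lgals3 at 2.93 against 268 CPM. The share of all genes that were higher in the left-out RO-3306 libraries is not given, so the count of 7 is no result about these genes.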

How the results depend on the processing

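The count of 1 gene at least 2-fold higher and 0 at least 2-fold lower among the 10 held under every alternative run. Over those alternatives the log2 ratio of Lgals3 ranged from 1.62 to 2.54, of Anxa1 from -0.79 to -0.43 and of Anxa2 from -0.61 to -0.28. Of 180 recomputed ratios of the 10 genes, 54 stayed within counting limits, and none of the 3 genes with 1 sign in all sets reversed. Genes of at least 5 CPM past 2-fold numbered 3413, and leaving out cells one at a time gave 3371 to 3498. The number was 5545 over all genes with a count, 801 over genes of at least 50 CPM and 134 over genes of at least 200 CPM (a limit added after seeing the data), since each limit changes how many genes enter. Of these calls 1141 were higher and 2272 lower (33.4% higher), against 1483 and 1806 under TMM (45.1%) and 1523 and 1777 under DESeq2 factors (46.2%). The share was 84.9% with medians over cells, and 52.1% (1525 and 1401) once each ratio was set against genes of similar mRNA length, which also took S100a6, S100a10 and Lgals1 below 0 (-0.21, -0.21 and -0.25). S100a4, S100a11 and Anxa3 then lay at -0.45, -0.32 and -0.28, and of the 10 genes only Lgals3 stayed above 0. The median ratio was 0.29 over genes of the mRNA length of the S100 genes and Lgals1. At full depth the median correlation among S100 genes was 0.34 in control and 0.60 in RO-3306. No paired analysis was possible because cells of the 2 groups share a title letter and number but no stated origin, and no test was run.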
